A study of Mus musculus with 2 samples.

Results

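The genes for the fibroblast growth factor (Fgf) receptors were described in RNA of mouse embryonic facial prominence at embryonic day 13.5. The 5 members, Fgfr1, Fgfr2, Fgfr3, Fgfr4 and Fgfrl1, were taken by gene symbol from 43346 gene rows, and their 58 annotated transcripts from 103639 transcript rows. The rule for membership uses gene symbols and no measured value. All 5 genes and all 58 transcripts were found in both libraries. Both sexes were pooled, the strain is given as B6NCrl and the embryos as healthy, and the labels name no treatment or engineered allele. There were 2 libraries of total RNA, numbered as biological replicates 1 and 2, made from 10 ng of RNA over 200 nt each. The biosample identifiers differ and the donor identifier is shared, so their spread mixes differences between biosamples with those of library preparation. Since both libraries belong to 1 group, no conditions were contrasted and there is no p-value. Each ± is an SD across the pair of libraries (n = 2).

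Fgf receptors are receptor tyrosine kinases. A secreted Fgf, together with heparan sulphate or a Klotho protein, brings receptors together at the cell surface, and the kinases inside the cell then signal through the docking protein Frs2 to the Ras and MAP kinase cascade. The outside of each receptor carries immunoglobulin-like loops. The second part of loop III is encoded by alternative exons in Fgfr1, Fgfr2 and Fgfr3: exon IIIb, used mainly by epithelia, or exon IIIc, used mainly by mesenchyme. The choice sets which Fgfs bind, so that mesenchymal Fgf7 and Fgf10 act on epithelial IIIb receptors and epithelial Fgf8 and Fgf9 act on mesenchymal IIIc receptors. Fgfr4 has a single form of this region, and Fgfrl1 binds Fgfs but has no kinase. In the face these receptors are known from the craniosynostosis and cleft syndromes of people with mutations in them.

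Alternative exons are printed first, exon IIIb of Fgfr2 and both exons of Fgfr3, because the transcript results turn on which of them a transcript holds. The pairs were found from gene structure in GENCODE M21 on GRCm38 as a pair of exons of 130 to 160 bases that are never joined in a coding transcript and share their flanking exons. The upstream one was called IIIb and the downstream one IIIc. Such a pair was present in 3 of the 5 genes, Fgfr1, Fgfr2 and Fgfr3. Each sequence reads 5′ to 3′ on the gene's strand, from the GENCODE transcript sequences, and the capitals mark its 1 in-frame cysteine codon, which encodes the cysteine that closes loop III.
Fgfr2 exon IIIb (chr7:130199758-130199905, minus strand, 148 bases): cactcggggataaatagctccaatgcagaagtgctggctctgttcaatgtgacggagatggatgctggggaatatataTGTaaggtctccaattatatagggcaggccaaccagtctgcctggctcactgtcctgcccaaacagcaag
Fgfr3 exon IIIb (chr5:33731281-33731431, plus strand, 151 bases): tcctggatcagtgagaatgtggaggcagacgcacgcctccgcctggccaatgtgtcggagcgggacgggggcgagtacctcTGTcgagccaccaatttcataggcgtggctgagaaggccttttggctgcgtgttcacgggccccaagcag
Fgfr3 exon IIIc (chr5:33732117-33732261, plus strand, 145 bases): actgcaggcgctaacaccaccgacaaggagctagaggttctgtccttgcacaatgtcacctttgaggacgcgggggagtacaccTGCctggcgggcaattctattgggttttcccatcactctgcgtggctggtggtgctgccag

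The cysteine codon was tgt in both IIIb exons printed and tgc in the IIIc exon of Fgfr3. In a global alignment, the IIIb exons of Fgfr2 and Fgfr3 were 52.03% identical over 148 aligned bases. The IIIb and IIIc exons of Fgfr3 were 51.4% identical over 142 aligned bases. The IIIb exon of Fgfr2 and the IIIc exon of Fgfr3 were 58.3% identical over 139 aligned bases, the highest of the 3 pairs.

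Replicate 1 held 28542452 expected counts (estimated reads) on gene rows and replicate 2 held 22719352. Levels are given as TPM, abundance per transcript length scaled to a total of 1000000 per library, which allows genes to be compared. ERCC spike-in RNA took 13.4% of the TPM in replicate 1 and 9.68% in replicate 2. Detected means 1 TPM or more in both libraries, which held for 34.4% of all gene rows and for 60.9% of 21474 protein-coding ones. All 13 epithelial and all 13 mesenchymal marker genes were detected, with summed levels of 1322 and 1307 TPM for the epithelial list and 4429 and 4267 TPM for the mesenchymal list in replicates 1 and 2. The libraries stood apart in liver markers: 13 of 13 were higher in replicate 2, their sum was 17.3 TPM in replicate 1 and 427 TPM in replicate 2, and Fga, Fgb and Apob were at 0 counts in replicate 1. Heart markers were higher in replicate 2 for 9 of 9 genes, with sums of 16.6 and 97.1 TPM and Myl2 at 0 counts in replicate 1. Of the other lists, markers of endothelium (10 of 10), neurons and glia (12 of 12), red cells (10 of 10) and leukocytes (8 of 8) were all detected, beside 15 of 16 cartilage, 13 of 14 muscle, 8 of 12 bone, 3 of 13 liver, 2 of 9 heart and 1 of 9 lens and retina markers.

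All 5 receptor genes were detected. Fgfr2 (ENSMUSG00000030849.13) and Fgfr1 (ENSMUSG00000031565.13), the receptors best known from facial epithelium and mesenchyme, were near the top of the range of protein-coding genes. Fgfr2 was at 135 TPM in replicate 1 and 155 TPM in replicate 2 (145 ± 14.0), and Fgfr1 at 119 and 124 TPM (122 ± 3.48). Of the coding gene rows, 95.6% lay below Fgfr2 and 94.6% below Fgfr1. Fgfr3 (ENSMUSG00000054252.13), a receptor of growing cartilage and of surface epithelium, was at 18.4 and 23.9 TPM (21.1 ± 3.87), above 71.5% of coding gene rows. Fgfrl1 (ENSMUSG00000008090.10), the receptor without a kinase, was at 9.32 and 16.8 TPM (13.1 ± 5.31), above 63.6%. Fgfr4 (ENSMUSG00000005320.9), known mainly as the receptor for endocrine Fgfs in liver, was at 3.24 and 2.82 TPM (3.03 ± 0.297), above 46.1%.

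On GRCm38, Fgfr1 lies at chr8:25513654-25575718 on the plus strand, Fgfr3 at chr5:33721674-33737068 and Fgfrl1 at chr5:108692382-108706924, both on the plus strand, and Fgfr4 at chr13:55152640-55168759 on the plus strand. All deposited Fgfr2 models but 1 lie within chr7:130162451-130266263 on the minus strand. In counts, these levels rested on 7731.78 and 6355.1 expected counts for Fgfr2, 9379.78 and 7118.91 for Fgfr1, 1386.48 and 1382.14 for Fgfr3, 502 and 683 for Fgfrl1 and 187 and 134 for Fgfr4. Fgfr2 made up 47.6% of the summed TPM of the 5 genes, Fgfr1 40.2%, Fgfr3 6.93%, Fgfrl1 4.25% and Fgfr4 1.006%. In bulk tissue, fewer cells of a type and less RNA per cell cannot be told apart.

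**Figure D1:**
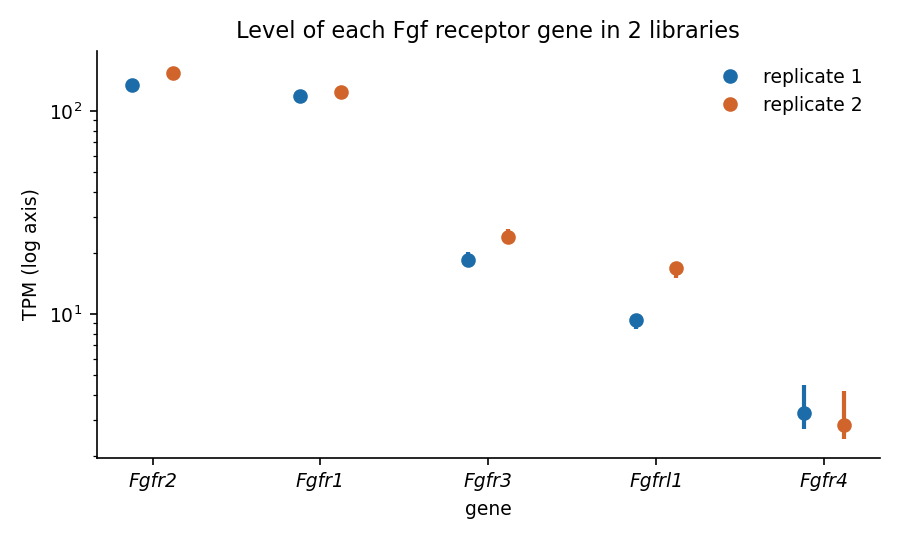
TPM of each receptor gene on a log axis, 1 point per library with its deposited 95% credibility interval as a line. Fgfr2 and Fgfr1 lie above 100 TPM in both libraries, Fgfr4 near 3 TPM, and the libraries are farthest apart for Fgfrl1.

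The order from Fgfr2 down to Fgfr4 was the same in both libraries. In all 10 pairs of receptors the deposited 95% credibility intervals, which cover the uncertainty of read assignment within a library, did not overlap in either library. Set against the spread between the libraries, only 1 of the 4 neighbouring steps, Fgfr1 over Fgfr3, was more than 3 SD in size (log2 ratio of levels 2.54 ± 0.22). The steps from Fgfr3 to Fgfrl1 (log2 ratio 0.74 ± 0.34) and from Fgfrl1 to Fgfr4 (2.05 ± 0.74) were of the same sign in both libraries but under 3 SD. Fgfr2 over Fgfr1 was the smallest step, at 1.13-fold in replicate 1 and 1.25-fold in replicate 2 (log2 ratio 0.25 ± 0.10).

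That smallest step changed sign when 1 transcript model was left out. Fgfr2-217, at 32.3 TPM in replicate 1 and 41.4 TPM in replicate 2, supplied 25.4% ± 2.00 of the TPM of Fgfr2, the largest mean share of its 26 transcripts. In GENCODE M21 its first 2 exons (chr7:133123141-133123350 and chr7:133081757-133081860, minus strand, 210 and 104 bases) lie in Ctbp2, a gene for a transcriptional corepressor, 2908817 bases from the next exon of the model. The second of these exons is identical to an exon of 15 Ctbp2 transcripts, and no other Fgfr2 model has either. The model then joins the last 5 exons of Fgfr2, for part of the kinase and the 3′ end, and has 546 coding bases. Ctbp2 itself was at 70.0 and 82.2 TPM. Whether reads of Ctbp2, of the Fgfr2 3′ end or of a joined RNA gave Fgfr2-217 its value was not tested.

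Without Fgfr2-217, a setting chosen after its structure and values were seen, Fgfr2 was at 103 TPM in replicate 1 and 113 TPM in replicate 2 (108 ± 7.54). Both values were below those of Fgfr1, and the log2 ratio of Fgfr2 to Fgfr1 turned to -0.18 ± 0.06. With expected counts not divided by length it was -0.22. Over coding IIIb and IIIc forms alone, Fgfr1 summed to 93.73 and 90.74 TPM and Fgfr2 to 65.55 and 65.31 TPM. The order of these 2 receptors therefore depended on how Fgfr2 was summed, while the steps below them did not change sign under any of the settings tried.

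IIIc forms were 77.7% of the TPM of Fgfr1 in replicate 1 and 71.9% in replicate 2, and IIIb forms 0.931% and 1.18%. Of the TPM on transcripts that hold exactly 1 of the alternative exons, the IIIb share of Fgfr1 was 1.18% in replicate 1 and 1.61% in replicate 2 (1.40% ± 0.300). The IIIb transcripts of Fgfr1 summed to 1.11 and 1.46 TPM, and the IIIc transcripts to 92.6 and 89.3 TPM. In Fgfr2 the IIIb share was 39.1% and 38.8% (38.9% ± 0.202), with 25.6 and 25.3 TPM of IIIb beside 39.9 and 40.0 TPM of IIIc. In Fgfr3 it was 45.7% and 55.2% (50.4% ± 6.75), with 7.01 and 11.5 TPM of IIIb beside 8.34 and 9.31 TPM of IIIc. The shares of Fgfr1 were far below those of the other 2 genes in both libraries, while Fgfr3 lay above Fgfr2 in both libraries by 6.598 and 16.4 percentage points.

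These shares are estimates, since most reads of a receptor fit both forms. Setting each transcript to its deposited credibility bound, IIIb low with IIIc high and the reverse, gives an outer range that is wider than a 95% interval. For Fgfr1 it ran from 0.00659% to 3.50% in replicate 1 and from 0.0365% to 5.18% in replicate 2. For Fgfr2 it ran from 28.6% to 52.8% and from 21.4% to 58.8%, and for Fgfr3 from 10.3% to 82.9% and from 31.2% to 82.6%. By these ranges Fgfr1 was apart from Fgfr2 and Fgfr3, and the order of Fgfr2 and Fgfr3 was not resolved. The shares also changed with the models used. Over transcripts whose deposited length equals that in GENCODE M21 the Fgfr1 share was 2.88%. For Fgfr2 the same restriction, which leaves out the main IIIb transcript Fgfr2-211 (1258 bases shorter in the deposited table), gave 21.9%, and expected counts not divided by length gave 29.5%. Fgfr2-211 had 3053 deposited bases against 4311 in GENCODE M21, while the main IIIc transcript Fgfr2-207 had 4223 in both. The outer range takes the models as deposited, and what their unequal lengths do to the share was not tested.

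**Figure D2:**
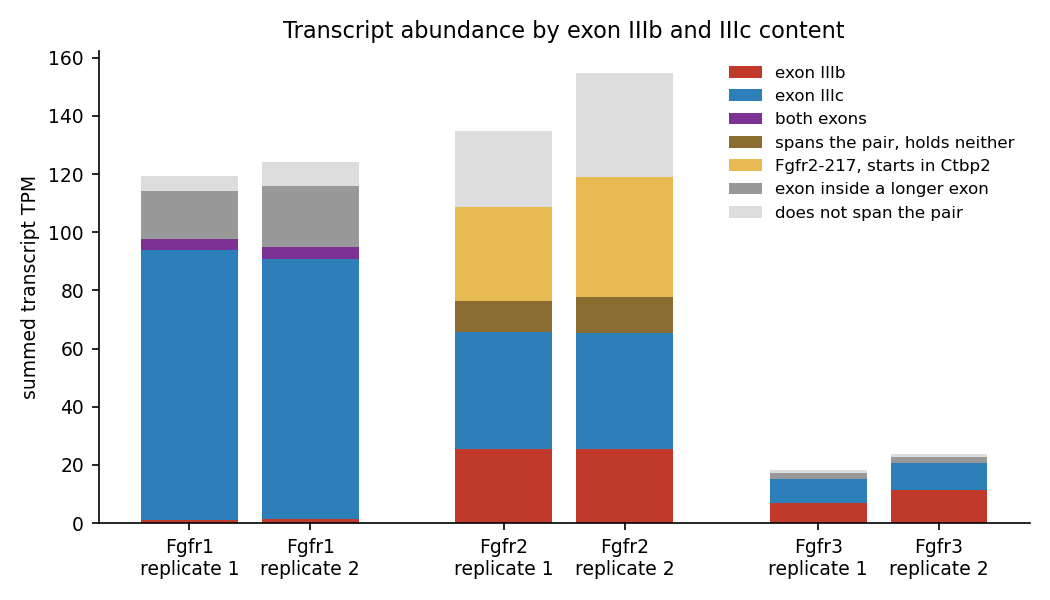
Summed TPM of the transcripts of Fgfr1, Fgfr2 and Fgfr3 in each library, stacked by whether a transcript holds exon IIIb, exon IIIc, both or neither. IIIc (blue) fills most of Fgfr1, Fgfr2 and Fgfr3 hold both forms, and Fgfr2-217 takes 32.3 and 41.4 TPM of Fgfr2.

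Added over the 3 genes, IIIb forms made up 19.3% of the IIIb and IIIc abundance in replicate 1 and 21.6% in replicate 2. With all models as deposited, Fgfr2 supplied most of the IIIb RNA, 75.9% and 66.2% of it, and Fgfr3 20.8% and 30.0%. Of the 25.6 and 25.3 TPM of Fgfr2 IIIb, 13.6 and 14.9 TPM were on Fgfr2-211, whose deposited length is 1258 bases shorter than in GENCODE M21. What that length does to these summed shares was not tested. Fgfr1 supplied most of the IIIc RNA, 65.7% and 64.4%, and Fgfr2 28.3% and 28.9%. Transcripts with exactly 1 of the exons were 75.8% ± 3.92 of the TPM of Fgfr1, 85.2% ± 2.66 of Fgfr3 and 45.4% ± 4.51 of Fgfr2. The rest of Fgfr2 was on Fgfr2-217, on transcripts that do not span the exon pair and on Fgfr2-226, which skips both exons.

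Of the 58 transcripts, 24 reached 1 TPM in both libraries, against 29.8% of all transcript rows, and 17 were listed at 0 TPM in both. The transcript with the highest TPM was the same in both libraries for 4 of the 5 receptor genes, against 91.7% of genes with more than 1 transcript and 5 TPM or more. Fgfr2 was the exception: Fgfr2-207 led in replicate 1 with 34.9 TPM, and Fgfr2-217 in replicate 2.

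**Figure D3:**
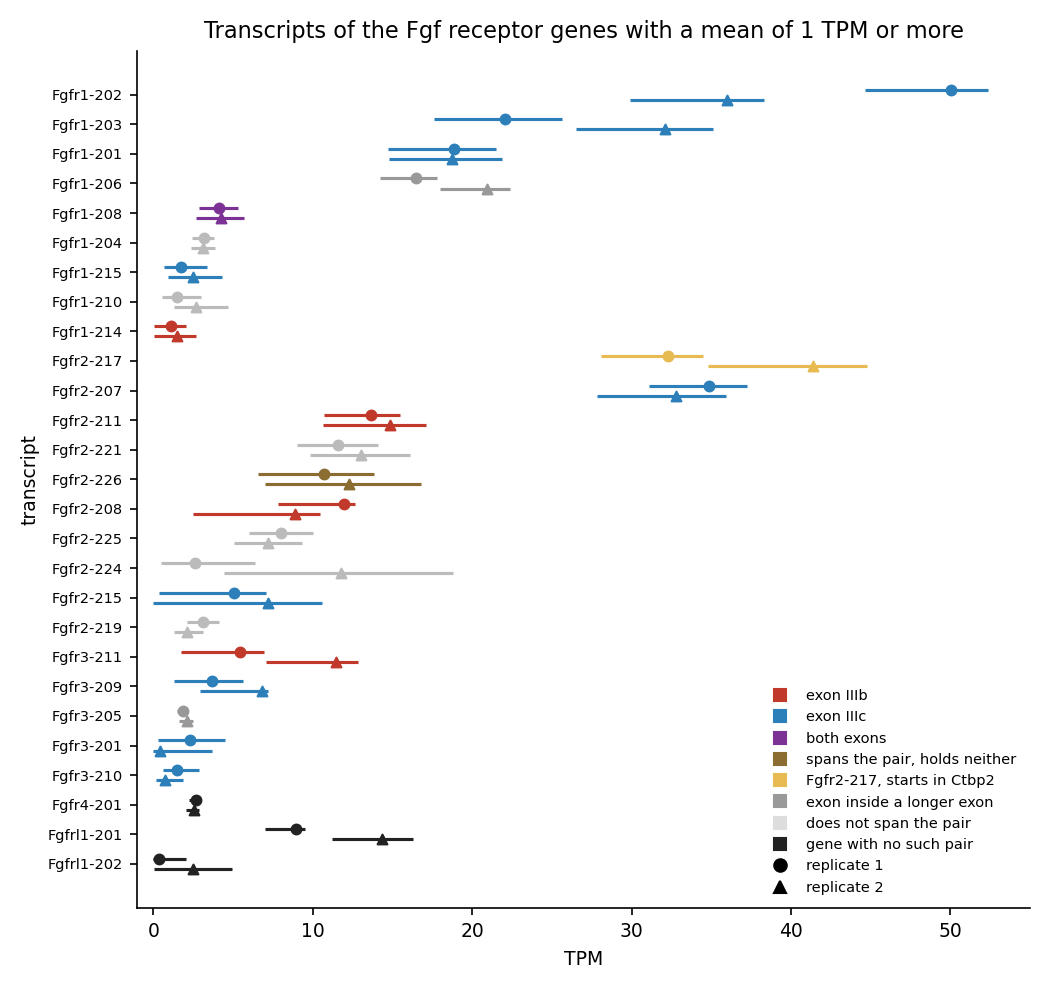
TPM of each receptor transcript with a mean of 1 TPM or more, circles for replicate 1 and triangles for replicate 2, with deposited 95% credibility intervals as lines and colour for the exon held. Fgfr1-202 spans 36.0 to 50.02 TPM between libraries, and the IIIb transcripts (red) with the highest levels are Fgfr2-211, Fgfr2-208 and Fgfr3-211.

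Fgfr1 had 15 transcripts, 9 of them detected, that is at 1 TPM or more in each library. Its leading form, Fgfr1-202, holds exon IIIc and the exon for loop I, the outermost loop, which lowers the affinity for Fgf. It was at 50.02 TPM in replicate 1 and 36.0 TPM in replicate 2, with intervals of 44.6 to 52.4 and 29.9 to 38.3 TPM that did not overlap. Fgfr1-203, a IIIc form without the loop I exon, was at 22.03 and 32.1 TPM, with intervals of 17.6 to 25.6 and 26.5 to 35.1 TPM that did not overlap either. Fgfr1-201, a IIIc form with loop I, was at 18.9 and 18.7 TPM, and Fgfr1-215, another, at 1.72 and 2.50 TPM. The only IIIb form of Fgfr1 above 0 was Fgfr1-214, at 1.11 and 1.46 TPM, with lower bounds of 0.00676 and 0.0363 TPM.

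Fgfr1-202 was thus lower and Fgfr1-203 higher in replicate 2, while the gene's level differed by little. The share of coding IIIb and IIIc forms of Fgfr1 with the loop I exon was 75.3% in replicate 1 and 63.0% in replicate 2. Fgfr1-203, the main form without that exon, had 3259 deposited bases against 3789 in GENCODE M21, while Fgfr1-202 had 4046 in both. The share and its difference between libraries rest largely on Fgfr1-203, and what its deposited length does to them was not tested. Fgfr1-208, a decay-target model that holds both IIIb and IIIc exons, was at 4.09 and 4.26 TPM, 3.43% of the gene in each library. That was more than all IIIb forms of Fgfr1 together. The retained-intron transcript Fgfr1-206 was at 16.5 and 20.9 TPM, and retained-intron transcripts together took 20.4% ± 3.39 of the gene. The antisense gene Gm16159 overlaps Fgfr1 on the other strand and was at 0.490 and 0.0800 TPM.

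Among coding IIIb and IIIc forms, most of the estimated TPM of Fgfr2 was on models without the loop I exon, unlike in Fgfr1. Its main IIIc form, Fgfr2-207, at 34.9 and 32.8 TPM, lacks both the loop I exon and the acid box exon that follows it, and so does its main IIIb form, Fgfr2-211, at 13.6 and 14.9 TPM. The next IIIb form, Fgfr2-208, at 11.98 and 8.87 TPM, has the acid box exon without loop I; its model lacks the coding start. Of the coding IIIb and IIIc forms above 0 TPM, 1 carried loop I, the IIIc form Fgfr2-215 at 5.07 and 7.18 TPM, with wide intervals of 0.344 to 7.07 and 0.00327 to 10.6 TPM. The decay-target model Fgfr2-226, which holds neither IIIb nor IIIc, also has the loop I and acid box exons. It was at 10.7 and 12.3 TPM and is not counted among these forms. The IIIb models with loop I, Fgfr2-202, Fgfr2-204 and Fgfr2-206, lack the coding start and were listed at 0 TPM in both libraries. Whether loop I reads were assigned to Fgfr2-226 rather than to coding forms was not tested, so the share shows no preference by itself. The share of coding IIIb and IIIc forms with loop I was 7.73% and 10.99% in Fgfr2, against 75.3% and 63.0% in Fgfr1. In Fgfr3 it was 100% in both libraries, a value set by the annotation that measures no preference. The only such Fgfr3 model without the loop I exon is Fgfr3-212, a partial model of 601 bases at 0 TPM. The acid box exon was in 26.5% ± 0.706 of the coding IIIb and IIIc forms of Fgfr2. Every such model of Fgfr1 holds it, so its share there was also set by the annotation.

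The forms of Fgfr2 also differed at the exon after the alternative pair, which encodes the membrane-spanning segment. One version ends 6 bases later than the other, 203 against 197 bases (chr7:130196172-130196374 and chr7:130196178-130196374, minus strand). The added bases are gtaaca, codons for valine and threonine, and lie in the juxtamembrane region where Frs2 docks. Fgfr2-207 has the version without them, and Fgfr2-211, Fgfr2-208 and Fgfr2-215 the version with them. Over coding IIIb and IIIc forms of Fgfr2 the version with them made up 46.8% in replicate 1 and 47.3% in replicate 2. This share includes Fgfr2-211 at its shorter deposited length and leaves out Fgfr2-226, which also has the 203-base exon. What either does to it was not tested. The coding IIIb and IIIc models of Fgfr1 all have a 203-base version, which ends in the same 6 bases. This is set by the annotation and measures no usage. The decay-target model Fgfr1-208, at 4.09 and 4.26 TPM, has an exon of 197 bases after the pair.

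Of the 26 Fgfr2 transcripts, 10 were detected and 11 were listed at 0 TPM in both libraries. Exon IIIb was in 10 models and exon IIIc in 5, but 7 or more of the IIIb models were at 0 TPM in each library. Fgfr2-226, a decay-target model that spans the pair without either exon, was at 10.7 and 12.3 TPM, 7.94% ± 0.0233 of the gene. Retained-intron transcripts took 21.2% ± 2.58 of Fgfr2, led by Fgfr2-221 at 11.6 and 13.0 TPM.

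**Figure D4:**
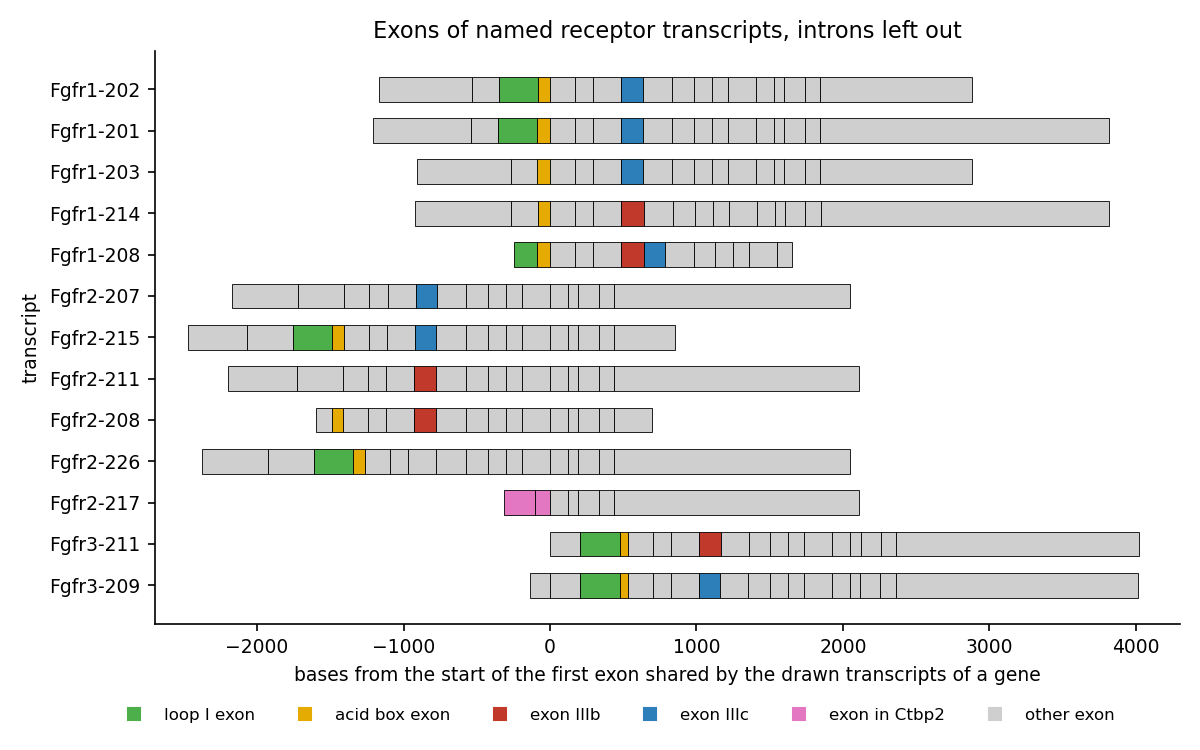
Exons of named transcripts from GENCODE M21 drawn to scale in bases with introns left out, aligned within each gene on the first exon shared by the transcripts drawn. Green marks the loop I exon, yellow the acid box exon, red IIIb and blue IIIc, and pink the 2 exons of Fgfr2-217 that lie in Ctbp2.

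Fgfr3 had 12 transcripts, of which 3 were detected. Its leading form in both was the IIIb transcript Fgfr3-211, at 5.43 TPM in replicate 1 and 11.5 TPM in replicate 2, with intervals of 1.70 to 6.94 and 7.07 to 12.9 TPM that did not overlap. The leading IIIc form, Fgfr3-209, was at 3.69 and 6.81 TPM, with intervals of 1.27 to 5.63 and 2.94 to 7.19 TPM that did. Point estimates of other forms went the other way: the IIIc transcripts Fgfr3-201 and Fgfr3-210 were at 2.27 and 1.5 TPM in replicate 1 and at 0.390 and 0.720 TPM in replicate 2, and the IIIb transcript Fgfr3-203 was at 1.58 TPM in replicate 1 and listed at 0 in replicate 2. For these 3 transcripts the intervals of the libraries overlapped, and the posterior mean of Fgfr3-201 was 1.98 and 1.70 TPM.

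The largest difference between libraries in a transcript's share of its gene was 18.6 percentage points for Fgfr3. That was larger than in 94.1% of genes with more than 1 transcript and 5 TPM or more, a background not matched for level or number of transcripts. It was 13.0 points for Fgfr1, larger than in 85.6%, and 5.69 points for Fgfr2, near the median over those genes of 5.47 points. For Fgfrl1 it was 10.8 points, larger than in 79.3%, and for Fgfr4, at about 3 TPM, 10.2 points, larger than in 76.8%. The IIIb share of Fgfr3 was 61.2% when only detected transcripts were counted. The retained-intron transcript Fgfr3-205 was at 1.86 and 2.08 TPM.

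Fgfr4 had 3 transcripts, and its coding one, Fgfr4-201, was at 2.67 and 2.53 TPM, 82.4% and 89.7% of the gene. Fgfr4-202, with a retained intron, was at 0.240 and 0.290 TPM, and Fgfr4-203 at 0.330 TPM in replicate 1 and listed at 0 in replicate 2. Fgfrl1 had 2 coding transcripts: Fgfrl1-201 at 8.94 and 14.3 TPM, and Fgfrl1-202 at 0.380 and 2.51 TPM.

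Transcripts annotated as protein-coding took 75.8% ± 3.92 of the TPM of Fgfr1, 70.8% ± 2.51 of Fgfr2, 81.5% ± 2.37 of Fgfr3 and 86.1% ± 5.17 of Fgfr4. All TPM of Fgfrl1 was on coding transcripts. The median over 7764 coding genes with more than 1 transcript and 5 TPM or more was 90.2%, with quartiles of 69.2% and 99.0%. The share was lower in 30.9% of those genes than in Fgfr1, in 26.1% than in Fgfr2 and in 37.0% than in Fgfr3. Fgfr4, at about 3 TPM, is below the level of that background, and its coding share was 97.8% with expected counts not divided by length. Without Fgfr2-217 the coding share of Fgfr2 was 60.8% ± 4.42.

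Between the libraries, Fgfrl1 was the only 1 of the 5 receptor genes to differ by more than 1.5-fold, which 6.88% of detected gene rows did in either direction and 4.76% with the higher value in replicate 2. From 502 expected counts in replicate 1 and 683 in replicate 2, it was 1.67-fold higher in replicate 2 (exact Clopper-Pearson 95% interval of counting error 1.48 to 1.87) after TMM scaling of library sizes. Fgfr3 was 1.22-fold higher in replicate 2 (1.13 to 1.32), and Fgfr1 was at 0.929 of its replicate 1 level (0.901 to 0.958). For Fgfr2 (1.006-fold, 0.973 to 1.04) and Fgfr4 (0.877-fold, 0.697 to 1.10) the interval included no difference. These intervals compare the 2 libraries, not conditions, and cover counting error only, since no molecular identifiers are described and reads may repeat molecules.

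Scaling to the ERCC spike-ins shifts the median log2 ratio of all detected genes to 0.54. Under it, all 5 receptors were higher in replicate 2 and 2 of 5 passed 1.5-fold, as did 39.7% of detected gene rows. The log2 ratio of Fgfr1 was then 0.45 and that of Fgfr4 0.37, each of the opposite sign to the TMM value, while Fgfrl1 was at 1.30, still the highest of the 5. Under TMM the log2 ratio of Fgfr4 was -0.19 (-0.52 to 0.14). In TPM the liver list summed 24.6-fold higher in replicate 2, and Fgfr4 was at 3.24 and 2.82 TPM. The 16 cartilage markers summed to 919 and 1248 TPM, 1.36-fold higher in replicate 2, with 14 of 16 higher and none at 0. Summed TPM was also higher in replicate 2 for red cell markers (1.34-fold, 8 of 10 genes) and for neuron and glia markers (1.24-fold, 10 of 12), and lower for bone markers (0.733-fold, with 3 of 12 higher). Sums of lens and retina (1.43-fold), muscle (1.10-fold), endothelium (1.09-fold) and leukocyte (1.08-fold) markers were higher in replicate 2 as well. Only the epithelial (0.989-fold), mesenchymal (0.963-fold) and bone lists summed lower there. In TPM, Fgfr1, Fgfr2, Fgfr3 and Fgfrl1 were all higher in replicate 2, so no marker list is singled out by going with a receptor. The TMM ratios of the receptors are in another unit, and the part of these markers in them was not tested.

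Among the ligands, those of IIIb receptors with the highest levels were Fgf10, a mesenchymal Fgf needed for limb and palate outgrowth, at 7.25 and 8.11 TPM, and Fgf7 at 5.65 and 7.70 TPM. In all, 2 of 4 genes of that group were detected, beside 5 of 10 that act mainly on IIIc receptors. Of these, Fgf18, an Fgf of bone and cartilage, was at 10.3 and 7.54 TPM, Fgf9 at 5.62 and 8.08 TPM, Fgf2 at 1.45 and 2.37 TPM and Fgf8, an epithelial signal of the early facial primordia, at 1.89 and 1.28 TPM. Fgf1, which acts on both forms, was at 0.75 and 1.31 TPM and was not detected in replicate 1. None of the 3 endocrine Fgfs was detected, with Fgf15, the highest by mean, at 0.570 and 0.780 TPM. Every ligand gene was thus below Fgfr1, Fgfr2 and Fgfr3 in both libraries, and the 2 detected IIIb ligands were of the same order as the IIIb forms of Fgfr3.

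**Figure D5:**
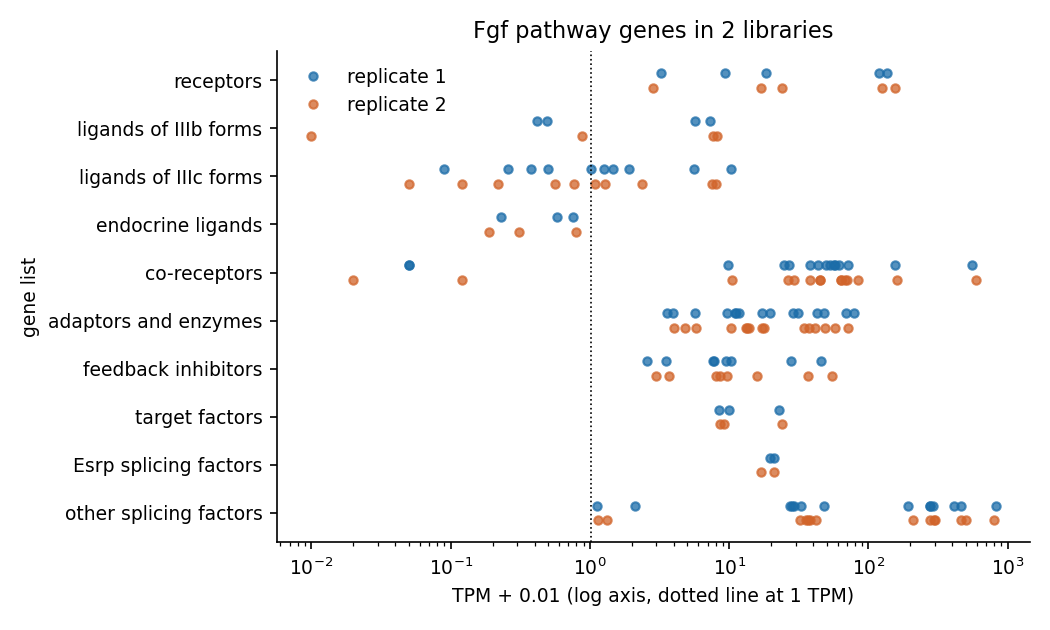
TPM of each gene of the Fgf pathway lists on a log axis, 1 point per gene and library, with 0.01 added so that genes at 0 can be drawn and a dotted line at 1 TPM. Co-receptors, adaptors, inhibitors and target factors lie to the right of the line except for the Klotho genes, and 2 of 4 and 5 of 10 genes of the IIIb and IIIc ligand groups do in both libraries.

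Co-receptors and cell-surface partners were detected for 13 of 15 genes. The glypican Gpc3 at 557 and 587 TPM and the syndecan Sdc1 at 156 and 160 TPM, both carriers of heparan sulphate, were above every receptor gene. The genes not detected were Klb, at 0.04 and 0.11 TPM, and Kl, at 0.04 and 0.01 TPM, which encode the Klotho partners of Fgfr4 and Fgfr1 for endocrine Fgfs. Kl and Klb rested on 1 to 6 counts per library. So Fgfr4 was present at about 3 TPM beside endocrine ligands under 1 TPM and Klotho genes near the counting floor.

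Downstream of the receptors, 15 of 15 adaptor and enzyme genes, 8 of 8 matched feedback inhibitors and 3 of 3 target transcription factors were detected. The adaptors Shc1 (68.6 and 71.7 TPM) and Grb2 (78.9 and 57.6 TPM) had the highest levels, and Frs2, the docking protein of Fgf receptors, was at 11.1 and 13.1 TPM. Dusp6, a phosphatase that acts on ERK and is induced by Fgf signals, was at 45.9 and 54.3 TPM, and Spry2, an inhibitor of the same cascade, at 27.6 and 36.9 TPM. Etv5, a transcription factor induced by Fgf signals, was at 22.8 and 24.0 TPM. All of these were below Fgfr1 and Fgfr2 in level in both libraries.

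For the choice between exons IIIb and IIIc, the epithelial splicing factors Esrp1 and Esrp2, known to favour IIIb in Fgfr2, were at 21.04 and 20.98 TPM and at 19.5 and 16.98 TPM. Scaled by TMM, the log2 ratio of replicate 2 to replicate 1 was -0.11 for Esrp1 (exact 95% interval of counting error -0.22 to 0.0039) and -0.30 for Esrp2 (-0.43 to -0.16). All 14 other listed splicing factors were detected, and action on receptor exons is not shown here for any of them. The highest were Hnrnpa1 at 817 and 798 TPM and Hnrnpf at 459 and 497 TPM. Next came Hnrnph1 at 411 and 459 TPM and Ptbp1 at 290 and 295 TPM. With 2 libraries no relation between a factor and an exon share could be computed.

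By distance of log2(TPM + 1) over the 2 libraries, the coding genes nearest to Fgfr2 were Polr2i and Thoc7, those nearest to Fgfr1 were Luc7l3 and Spag7, and those nearest to Fgfr3 were Tcim and Mmachc. Ube3c and Ell3 were nearest to Fgfrl1, and Plekhn1 and Fbxl16 to Fgfr4. With 2 libraries this measures a like level only. Within a distance of 0.1 lay 86 coding genes for Fgfr1, 41 for Fgfr4, 37 for Fgfr3, 31 for Fgfr2 and 3 for Fgfrl1.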

How the data were processed

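RNA of 2 libraries was quantified by the submitters per gene and per transcript, on assembly mm10 with annotation M4 per the notes deposited with each library. The aligner, the quantifier and the strandedness are not given in the sources used here. Whether reads of overlapping genes on opposite strands were told apart is therefore not known. Per the file headers, the authors' expected counts are estimated reads per feature, and TPM values are abundances per length scaled to a total of 1000000 with spike-in rows included. The deposited credibility bounds of TPM were treated as a signal in TPM. The deposited FPKM values served only as an alternative for the steps between neighbouring receptors. The posterior standard deviations of counts that the authors deposited were taken as a score. Isoform percent, as deposited, gives each transcript's share of its gene; shares here were computed from transcript TPM, and the percent served as an alternative.

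Rows were matched by identifier without version to GENCODE M21 (GRCm38), which gave symbols, exons and sequences; 42462 of 43346 gene rows matched, and 50 of the 58 receptor transcripts had the same length in both annotations. The sequences of some alternative exons are not reported here. Exon maps are those of M21 and can differ from M4. Expected counts were rounded for TMM (edgeR 4.0.16, R 4.3.3), with DESeq2 1.42.0 size factors as an alternative. A count of 0 allows up to 3 counts, 0.105 CPM in replicate 1 and 0.132 in replicate 2. The ratio step was tested on simulated data. Outputs were tabulated in Python 3.11.15 with pandas 2.3.3, numpy 2.4.6, scipy 1.17.1 and matplotlib 3.10.9.

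The members, the gene lists (23 lists, 219 of 220 entries matched; Spry3 was not) and the rules were chosen with earlier results of these data known. The transcripts named are each receptor's 3 highest by mean TPM and each IIIb or IIIc transcript with a mean of 1 TPM or more; Fgfr1-206, Fgfr2-221, Fgfr2-226 and Fgfr3-203 were named in addition, after their values were seen. List genes named are the 1 to 4 highest, plus Frs2, Kl, Klb and, by role, those the text describes. Alternatives were other units and scalings, posterior means, other transcript sets and leaving out each library.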

Additional observations from a re-analysis of the deposited data

How the results depend on the processing

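With 2 libraries of 1 group, each value left with a single library is that library's own value, and no ratio between libraries can then be computed. No paired analysis was possible because there is only 1 group. Depth limits low genes such as Fgfr4 (187 and 134 counts), the Klotho genes and the ligands below 1 TPM, and transcript shares rest on reads that fit several models.

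Rescaling TPM without spike-ins gave Fgfr2 163 TPM, Fgfr1 138 and Fgfr4 3.43, and the posterior mean gave Fgfr4 3.40. The log2 ratio of Fgfr2 to Fgfr1 reversed to -0.22 with counts not divided by length, and to -0.18 without Fgfr2-217, a setting chosen after seeing the data that gave Fgfr2 108 TPM and a coding share of 60.8%. With counts not divided by length, the log2 ratio of Fgfr3 to Fgfrl1 was 1.24, the Fgfr2 IIIb share 29.5%, the Fgfr2-217 share 22.5%, and the coding shares 82.1% for Fgfr1, 82.1% for Fgfr2, 90.5% for Fgfr3 and 97.8% for Fgfr4, which is the share of Fgfr4-201. Posterior means gave IIIb shares of 1.76% for Fgfr1 and 39.7% for Fgfr2, and 73.9% for Fgfr4-201 and the coding share of Fgfr4. Transcripts at 1 TPM or more gave IIIb shares of 38.2% for Fgfr2 and 61.2% for Fgfr3, and transcripts of equal length 2.88% for Fgfr1 and 21.9% for Fgfr2. Spike-in scaling gave library log2 ratios of 0.45 for Fgfr1 and 0.37 for Fgfr4, both reversed, 0.57 for Fgfr2, 0.85 for Fgfr3 and 1.30 for Fgfrl1, with 2 genes past 1.5-fold. The TPM ratio gave 0.058 for Fgfr1, reversed, and 0.20 for Fgfr2. The cause was not tested where the construction of a setting does not show it.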
